A study of Mus musculus with 9 samples.

Results

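The interferon response genes examined here are 38 mouse genes named by symbol: 4 interferon receptor subunits, 4 transcription factors of the pathway, and sensors, enzymes and antiviral effectors that interferon is known to induce. A probe set annotated to 1 of these symbols alone was found for 35 of the 38, out of 22180 genes with such a probe set, and 27 of the 35 passed the filter on low values that was set for testing (15526 genes in all, 70% of those named). Oas1a and Gbp2 share their probe sets with a second symbol and Ifi44 has none named in the annotation used, so these 3 genes have no value here. All samples are cultured cells that go back to MYCCaP, 1 mouse prostate cancer line derived from an animal whose prostate epithelium carried a MYC transgene. The AZD1208 group holds 3 lines from mice that received AZD1208, an inhibitor of the PIM kinases, and the Vehicle group holds 3 lines from mice that received vehicle. Both groups came from tumours that regrew in castrated mice and were cultured without dihydrotestosterone (DHT), an androgen. They are called the recurrent lines below. The Parental group is the starting line, cultured with DHT, on 3 arrays labelled technical replicates, which were averaged and counted as 1 sample. Growth in a castrated mouse and absence of DHT cannot be told apart in the comparison with Parental. The labels call the 6 recurrent lines biological replicates without tying each to its own mouse, so p-values measure only the spread between these lines.

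Interferons are secreted proteins that warn cells of infection. Type I interferons bind a receptor of the IFNAR1 and IFNAR2 chains and act through a complex that holds STAT2 and IRF9 and binds the interferon-stimulated response element (ISRE) in the promoters of target genes. Interferon gamma binds IFNGR1 and IFNGR2 and acts on genes with a gamma-activated site (GAS). In epithelial and tumour cells a low tonic level of this pathway is known to keep some target genes expressed, while others depend on acute stimulation.

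Promoter windows of 300 bases, from 250 before to 50 after the transcription start (RefSeq, build GRCm38.p6), were held for 29 of the 38 genes. The ISRE core GAAANNGAAA, searched on both strands, occurred in a window of 13 of these 29 genes (44.8%), against 3.99% of the 27025 genes in the promoter table. The GAS core TTCNNNGAA, searched in the same way, occurred in 8 of the 29 (27.6%), against 9.55% of all genes. Oas1a, Bst2 and Eif2ak2 hold both cores, and in Bst2 the GAS core overlaps the ISRE run. A match describes letters and not a bound site. The windows below are shown because they belong to members whose values carry the results, with the ISRE core in capitals for the first 4 and the GAS core in capitals for the last 2. They are Stat2 and Bst2, among the members that differed most between lines, Isg15, below Parental in every recurrent line, Ifit1, whose groups differed little, and the receptor gene Ifnar1 and the regulator Irf1.
Stat2, chr10:128270248-128270547, plus strand: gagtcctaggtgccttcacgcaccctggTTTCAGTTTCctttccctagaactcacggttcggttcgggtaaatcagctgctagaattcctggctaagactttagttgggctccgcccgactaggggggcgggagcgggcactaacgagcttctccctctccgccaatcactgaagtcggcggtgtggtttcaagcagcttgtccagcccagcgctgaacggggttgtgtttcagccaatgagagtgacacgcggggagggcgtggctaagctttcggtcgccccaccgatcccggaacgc
Bst2, chr8:71537423-71537722, minus strand: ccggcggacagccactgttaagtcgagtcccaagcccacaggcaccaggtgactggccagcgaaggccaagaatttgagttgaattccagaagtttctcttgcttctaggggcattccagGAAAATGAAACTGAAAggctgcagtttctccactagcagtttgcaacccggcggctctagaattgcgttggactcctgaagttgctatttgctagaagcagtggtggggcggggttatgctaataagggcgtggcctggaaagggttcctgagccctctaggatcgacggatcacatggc
Isg15, chr4:156200769-156201068, minus strand: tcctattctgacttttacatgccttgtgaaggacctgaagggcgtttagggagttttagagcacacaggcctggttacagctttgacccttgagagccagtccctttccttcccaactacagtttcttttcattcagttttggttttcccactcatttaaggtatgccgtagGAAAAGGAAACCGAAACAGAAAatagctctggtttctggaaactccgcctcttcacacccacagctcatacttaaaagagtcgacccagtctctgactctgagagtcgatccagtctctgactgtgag
Ifit1, chr19:34640639-34640938, plus strand: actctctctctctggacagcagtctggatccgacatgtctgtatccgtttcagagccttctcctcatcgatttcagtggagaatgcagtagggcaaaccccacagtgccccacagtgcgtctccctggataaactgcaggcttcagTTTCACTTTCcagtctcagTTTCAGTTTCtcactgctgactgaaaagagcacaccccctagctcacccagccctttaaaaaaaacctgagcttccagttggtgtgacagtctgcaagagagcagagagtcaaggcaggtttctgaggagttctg
Ifnar1, chr16:91484965-91485264, plus strand: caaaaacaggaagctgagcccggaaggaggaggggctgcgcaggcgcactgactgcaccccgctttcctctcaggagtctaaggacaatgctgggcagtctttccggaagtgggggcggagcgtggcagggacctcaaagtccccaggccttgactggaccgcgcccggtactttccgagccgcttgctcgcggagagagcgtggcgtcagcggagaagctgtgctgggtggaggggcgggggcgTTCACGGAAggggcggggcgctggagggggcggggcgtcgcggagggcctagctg
Irf1, chr11:53769764-53770063, plus strand: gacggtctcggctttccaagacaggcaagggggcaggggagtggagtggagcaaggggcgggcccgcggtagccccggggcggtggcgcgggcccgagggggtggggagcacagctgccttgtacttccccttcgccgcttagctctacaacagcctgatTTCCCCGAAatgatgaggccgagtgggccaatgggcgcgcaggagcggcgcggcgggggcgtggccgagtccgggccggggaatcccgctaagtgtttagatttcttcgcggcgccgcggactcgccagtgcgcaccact

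In Isg15 there are 3 overlapping ISRE cores in 1 run, in Bst2 2 overlapping cores, and in Ifit1 2 separate cores. Irf1 has a second annotated start whose window holds neither core.

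All values are the authors' deposited log2 intensities, 1 per probe set and array, with array medians between 6.22 and 6.36. Without a measure of detection, a dim value cannot be read as expression or its absence, and differences of dim genes can be understated. Vehicle and AZD1208 lines also differed among themselves over the whole array: AZD1208 3 had the narrowest interquartile range (2.87, against 2.99 to 3.12 in the other samples) and the lowest array quality weight (0.34). The weights of AZD1208 2 (0.58) and Vehicle 1 (0.63) were also low, against 1.24 (Parental) to 2.87 (AZD1208 1) in the remaining samples. Of the prostate epithelial markers, Hoxb13 lay between 8.44 and 8.92 and Krt8 between 8.24 and 10.44 in the recurrent lines, and Epcam lay below the filter. Of the 6 such markers measured, 5 were lower in recurrent lines than in Parental and 1 was higher (median difference -0.21).

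**Figure D1:**
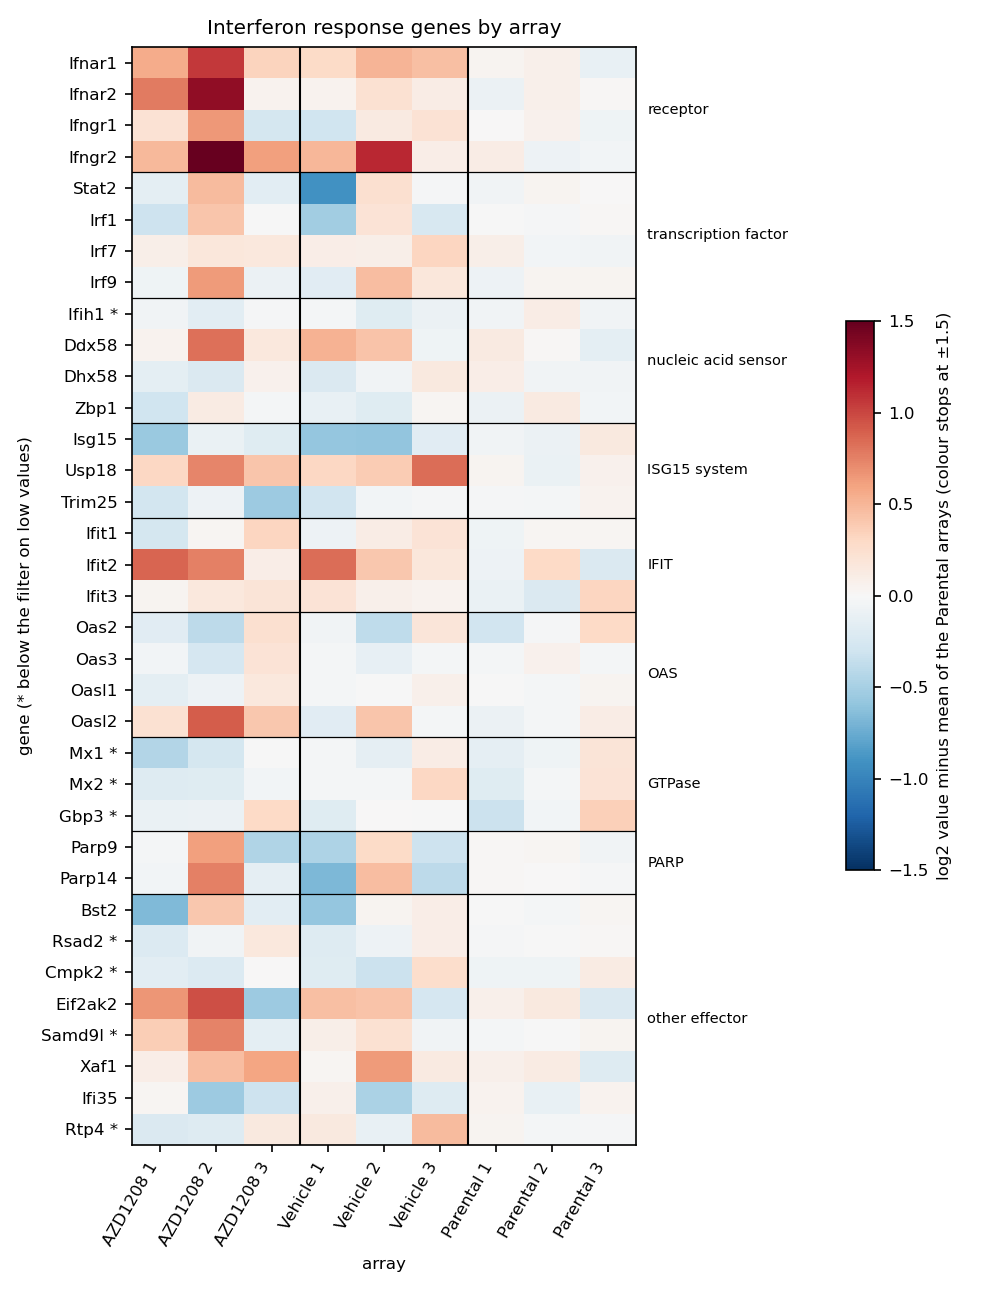
Log2 value of each of the 35 measured interferon response genes on each of the 9 arrays, minus the mean of the 3 Parental arrays, grouped by role; red is higher and blue lower than Parental, and an asterisk marks the 8 genes below the filter. The receptor rows are mostly red in the recurrent lines, most strongly in AZD1208 2, while the OAS and GTPase rows other than Oasl2 stay pale.

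The first comparison asked whether interferon response genes differ between lines from mice given the PIM inhibitor and lines from mice given vehicle. No member passed the test in either direction (limma, adjusted p = 1 for each of the 27 tested, threshold 0.05), and 0 of the 27 had an unadjusted p below 0.05. The same test called 0% of the 15526 genes at the adjusted threshold and 0.522% at the unadjusted one. Values were higher in AZD1208 lines for 23 of the 35 measured members and lower for 12, with a median difference of 0.02 on the log2 scale, against 47.5% higher and a median of -0.0099 over all 22180 named genes. That split depended on the scale and on the weight of single lines, with 17 members higher and a median of -0.0018 after median centring of the samples, and 14 higher and a median of -0.017 with array quality weights. Leaving out each line in turn gave medians of 0.0043 (without AZD1208 2) to 0.1067 (without AZD1208 1). Mx2, an antiviral GTPase that lies below the filter, was the 1 member whose groups did not overlap. It was at 4.76, 4.76 and 4.92 in AZD1208 lines, against 4.93, 4.93 and 5.26 in Vehicle lines. Over all named genes, AZD1208 lines lay wholly below Vehicle lines for 2.29% and wholly above for 1.92%.

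The recurrent lines were then compared, all 6 together, with Parental. Again no member passed (limma, adjusted p = 1 for each), 0 of 27 had an unadjusted p below 0.05, and the test called 0% of all genes at the adjusted threshold and 2.76% at the unadjusted one. Values were higher in recurrent lines for 16 of the 35 members and lower for 19, with a median difference of -0.0053, against 45.2% higher and a median of -0.02 over all named genes. Leaving out each line in turn gave medians of -0.0225 (without Vehicle 3) to 0.0468 (without Vehicle 1), and 16 to 23 members higher. All 6 lines lay above the Parental mean for 8 members (22.9%; 10.2% of all named genes): Ifnar1, Ifnar2, Ifngr2, Irf7, Usp18, Ifit2, Ifit3 and Xaf1. Of these, Ifnar1 and Usp18 also lay above each single Parental array (5.71% of the members, 5.1% of all genes). All 6 lines lay below the Parental mean for Ifih1, Isg15 and Trim25 (8.57%; 9.88% of all genes). Of these 3, Isg15 also lay below each Parental array (2.86%; 3.86% of all genes), but its recurrent mean was below the filter value.

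**Figure D2:**
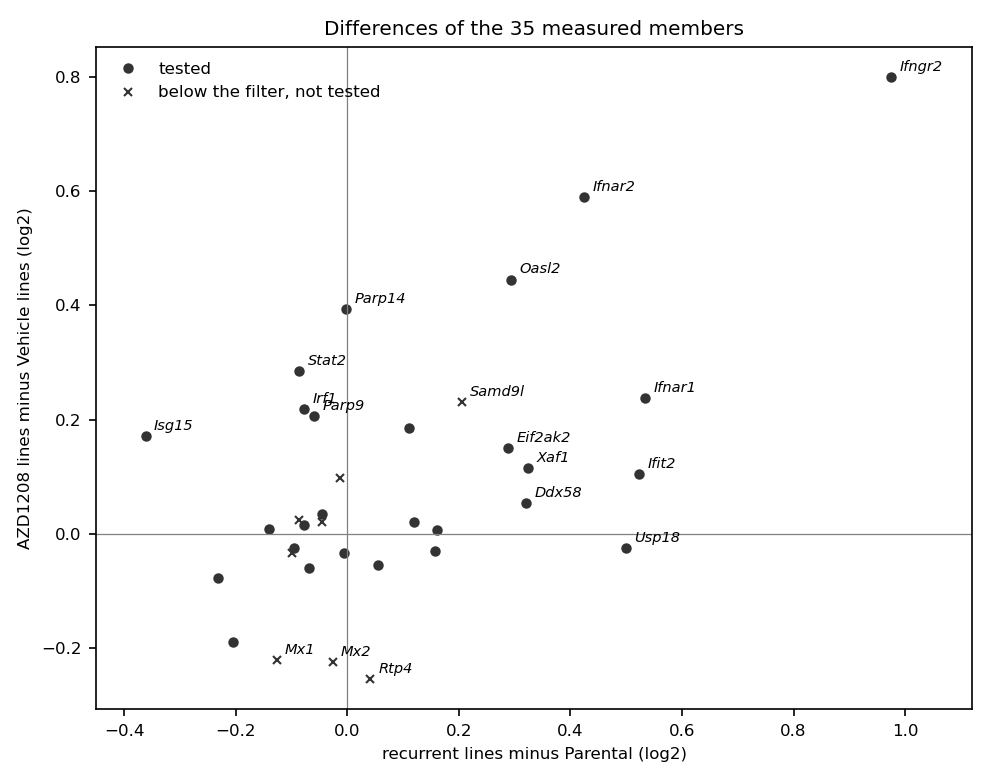
For each of the 35 measured members, the log2 difference of recurrent lines minus Parental (horizontal) against the difference of AZD1208 minus Vehicle lines (vertical); circles passed the filter and crosses did not. Ifngr2 (0.97 and 0.80) lies furthest from the origin, Isg15 (-0.36) is furthest to the left, and Mx1, Mx2 and Rtp4 are lowest.

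The receptor subunits stood highest above Parental as a role, with a median difference of 0.48 over the 4 genes in the recurrent lines and 0.41 for AZD1208 against Vehicle. Without AZD1208 2 the 4 AZD1208 minus Vehicle differences lay between -0.04 and 0.28. Ifnar1 encodes the signalling chain of the type I receptor that pairs with the kinase TYK2. It was at 10.34, 10.85 and 10.11 in AZD1208 lines, at 10.07, 10.29 and 10.23 in Vehicle lines and at 9.82, 9.86 and 9.67 on the Parental arrays. All 6 recurrent lines therefore lay above all 3 Parental arrays, and the AZD1208 and Vehicle lines overlapped. The difference of recurrent lines from Parental was 0.53 (SE 0.28), which is 1.45-fold. Its unadjusted limma p, 0.0967, was the smallest of any member in this comparison. Between AZD1208 and Vehicle lines it was 0.24 (SE 0.21), and 0.03 without AZD1208 2 or 0.40 without AZD1208 3.

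Ifnar2, the second type I chain, binds interferon with high affinity. It was at 10.69, 11.24 and 9.97 in AZD1208 lines, at 9.97, 10.14 and 10.02 in Vehicle lines and at 9.83, 9.99 and 9.93 on the Parental arrays. AZD1208 1 and AZD1208 2 stood above every Vehicle line, and AZD1208 3 stood below them all, level with Vehicle 1. The AZD1208 minus Vehicle difference of 0.59 (SE 0.30) had the smallest unadjusted limma p of any member in that comparison, 0.0917. It was 0.28 without AZD1208 2 and 0.92 without AZD1208 3. Against Parental the difference was 0.42 (SE 0.40), and 0.27 without AZD1208 2.

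Ifngr2, the signalling chain of the gamma receptor, had the widest range of all 35 members, 2.91 between the lowest and the highest recurrent line. It was at 8.55, 11.08 and 8.68 in AZD1208 lines, at 8.56, 9.19 and 8.16 in Vehicle lines and at 8.18, 7.98 and 8.02 on the Parental arrays. AZD1208 2 stood alone above the other lines, and Vehicle 2 was next. The difference of recurrent lines from Parental was 0.97 (SE 0.87, 1.97-fold), or 0.56 without AZD1208 2. The AZD1208 minus Vehicle difference was 0.80 (SE 0.66) and turned its sign without AZD1208 2 (-0.02). Ifngr1, the ligand-binding chain of the gamma receptor, was at 10.07, 10.52 and 9.60 in AZD1208 lines, at 9.57, 10.00 and 10.07 in Vehicle lines and at 9.87, 9.92 and 9.80 on the Parental arrays. Its lines lay on both sides of Parental, with a difference of 0.11 (SE 0.35) for recurrent lines and 0.18 (SE 0.26) for AZD1208 against Vehicle. Both signs turned without AZD1208 2 (-0.0033 and -0.04).

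**Figure D3:**
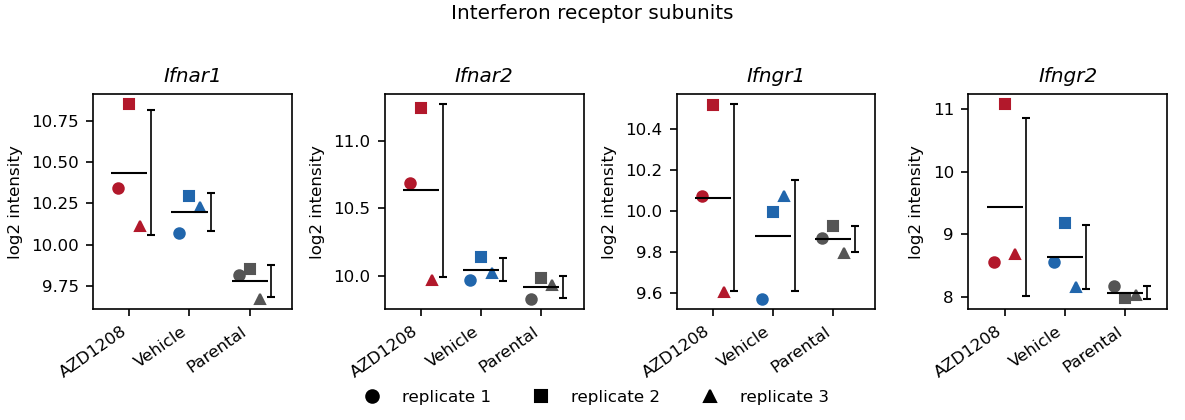
Log2 intensity of the 4 receptor subunits in AZD1208 lines (n = 3), Vehicle lines (n = 3) and on the 3 technical Parental arrays; symbols mark the replicate number, horizontal lines the mean and bars the SD. AZD1208 2 is the highest line in each panel, and in the Ifnar1 panel every recurrent line lies above the Parental arrays.

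Ifnar2, Ifnar1 and Ifngr2 are neighbours on chromosome 16, with Il10rb, a chain of the interleukin-10 and type III interferon receptors, between the type I chains. Il10rb likewise had its highest value in AZD1208 2, at 10.18, with Vehicle 1 second, and a difference of 0.66 from Parental, and 5 of 6 lines above it. These 4 cluster genes were set beside the 8 protein-coding genes on each side in the RefSeq table, a choice made after the values were seen. Of the 16 flanking genes 15 were measured, and their median difference from Parental was 0.07, within a range of -0.65 (Donson) to 0.47 (Cryzl1). All 6 lines lay above Parental for 2 of the 15 (10.2% of all named genes), Dnajc28 (0.32) and Cryzl1. They lay below it for 3 (9.88% of all named genes), Urb1, Gart and Donson. AZD1208 2 was highest in 6 of the 15 (15.9% of all named genes). Beyond Ifngr2 these were the next gene, Tmem50b, at 1.22 above Parental, and Dnajc28 (0.83), Son (0.59) and Itsn1 (0.33). On the Ifnar2 side they were Paxbp1 (0.86) and Synj1 (0.39). The nearest genes on the Ifnar2 side, Olig1 and Olig2, were at -0.27 and -0.32 in AZD1208 2, and Olig2 lay below the filter. The median of the 15 flanking genes in that line was -0.03.

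**Figure D4:**
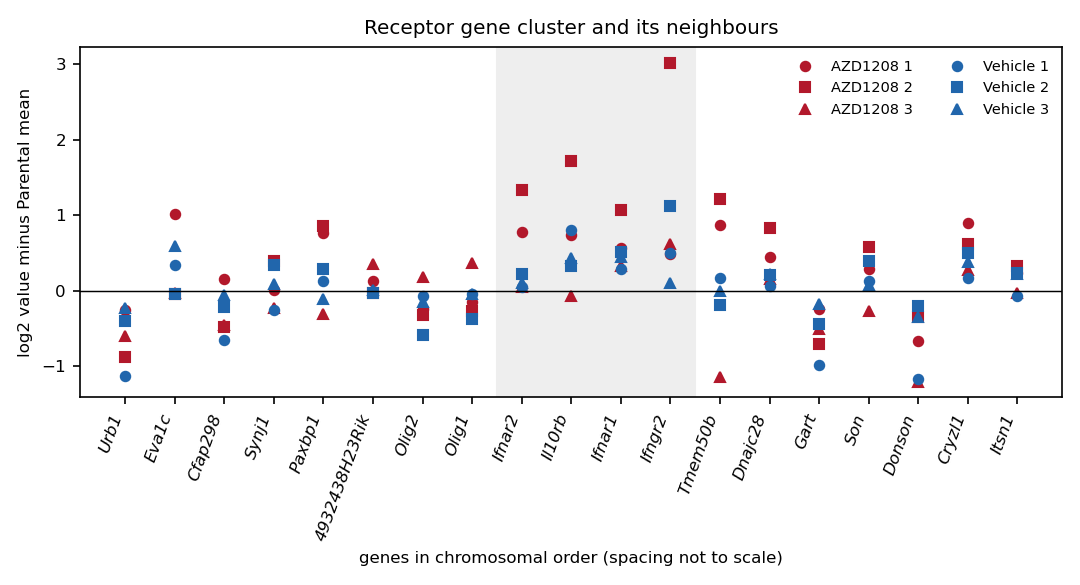
Log2 value minus the Parental mean in each of the 6 recurrent lines for the receptor gene cluster on chromosome 16 (grey band) and its measured protein-coding neighbours, in chromosomal order with spacing not to scale. AZD1208 2 (red squares) is highest in all 4 cluster genes and at 3.02 in Ifngr2, while Urb1, Gart and Donson lie below 0 in all 6 lines.

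No transcription factor passed the test, and 3 of the 4 were highest in AZD1208 2. Stat2, the STAT that is specific to type I and type III signalling, was at 7.31, 7.94 and 7.31 in AZD1208 lines, at 6.56, 7.70 and 7.45 in Vehicle lines and at 7.41, 7.51 and 7.48 on the Parental arrays. AZD1208 2 and Vehicle 2 were the 2 lines above Parental, and Vehicle 1 stood well below all other samples. Its group differences were smaller than their errors, at 0.29 (SE 0.33) for AZD1208 against Vehicle and -0.09 (SE 0.43) for recurrent lines against Parental, and both turned their sign without Vehicle 1 (-0.05 and 0.08).

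Irf9, the DNA-binding partner of STAT2 in that complex, followed the same order of lines at the top. It was at 7.49, 8.21 and 7.48 in AZD1208 lines, at 7.40, 8.03 and 7.73 in Vehicle lines and at 7.49, 7.60 and 7.60 on the Parental arrays. The group means were 7.73 ± 0.42 in AZD1208 lines and 7.72 ± 0.32 in Vehicle lines (SD, n = 3 each), and the recurrent lines differed from Parental by 0.16 (SE 0.34), or by 0.04 without AZD1208 2, 0.08 without Vehicle 2 and 0.24 without Vehicle 1. Irf1, a factor induced by interferon gamma, was at 8.34, 9.06 and 8.65 in AZD1208 lines, at 8.13, 8.85 and 8.41 in Vehicle lines and at 8.65, 8.64 and 8.67 on the Parental arrays. AZD1208 2 and Vehicle 2 were again highest and Vehicle 1 lowest, while the 3 Parental arrays agreed within a technical SD of 0.02. The difference was 0.22 (SE 0.25) for AZD1208 against Vehicle, with 0.0289 without AZD1208 2, 0.05 without Vehicle 1, 0.39 without AZD1208 1 and 0.41 without Vehicle 2. Against Parental it was -0.08 (SE 0.34), with -0.17 without either AZD1208 2 or Vehicle 2, and its sign turned without AZD1208 1 (0.0092) or Vehicle 1 (0.0059).

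Irf7, which amplifies type I interferon production and is itself strongly induced by it, had another order of lines. It was at 6.38, 6.47 and 6.45 in AZD1208 lines, at 6.40, 6.38 and 6.61 in Vehicle lines and at 6.38, 6.25 and 6.25 on the Parental arrays. All 6 lines lay above the Parental mean, but by 0.16 (SE 0.19) on average, and the range over the lines was 0.23. Vehicle 3 was the highest line, and AZD1208 and Vehicle lines differed by -0.03 (SE 0.14).

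In 7 members AZD1208 2 was the highest and Vehicle 2 the second highest of the 6 lines: Ifngr2, Stat2, Irf1, Irf9, Oasl2, Parp9 and Parp14. That is 20% of the measured members, against 4.4% of all named genes. This pair of lines was chosen after the members' values were seen, so the shares are a description and not a test. Parp14, an ADP-ribosyltransferase induced by interferon, was at 6.67, 7.47 and 6.57 in AZD1208 lines, at 6.04, 7.17 and 6.32 in Vehicle lines and at 6.72, 6.71 and 6.69 on the Parental arrays. Its technical SD of 0.02 between the Parental arrays was far below the SD of 0.53 over the 6 lines, and the lines lay on both sides of Parental. The range over the lines was 1.43. The AZD1208 minus Vehicle difference was 0.39 (SE 0.35), and 0.11 without AZD1208 2, 0.16 without Vehicle 1 and 0.72 without Vehicle 2. Parp9, which acts with the ubiquitin ligase DTX3L, had a similar order of lines, with 8.36 in AZD1208 2 and 8.03 in Vehicle 2, and with 7.30 in AZD1208 3 and 7.29 in Vehicle 1 at the low end. Oasl2, an oligoadenylate synthetase-like protein, was at 6.09, 6.77 and 6.26 in AZD1208 lines, at 5.68, 6.28 and 5.82 in Vehicle lines and at 5.76, 5.83 and 5.97 on the Parental arrays. All 3 AZD1208 lines lay above the Parental arrays, but Vehicle 2 lay among them. The difference between AZD1208 and Vehicle lines was 0.45 (SE 0.24), and 0.25 without AZD1208 2.

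Bst2, the membrane protein tetherin that holds back budding virus, shared the high value in AZD1208 2 (7.98) with low values in AZD1208 1 (6.91) and Vehicle 1 (6.99). Its group means were the same to within 0.01, with 7.43 ± 0.54 in AZD1208 lines and 7.42 ± 0.38 in Vehicle lines (SD, n = 3 each). Over all 35 members AZD1208 2 was highest in 16 (45.7%; 15.9% of all named genes), while Vehicle 3 was highest in 8 (22.9%; 21.2% of all genes), AZD1208 3 in 7 (20%; 30.5% of all genes) and AZD1208 1 in 1, Ifit2 (9.95% of all genes). The lowest line was AZD1208 1 in 11 members (31.4%; 16.5% of all genes) and Vehicle 1 in 10 (28.6%; 15.3% of all genes), and Vehicle 2 was lowest in 3 (20.5% of all genes). The median over the members, relative to Parental, was -0.05, 0.17 and 0.05 for AZD1208 lines 1 to 3, and -0.03, 0.09 and 0.10 for Vehicle lines 1 to 3. The same median over all named genes lay between -0.05 and 0.04.

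**Figure D5:**
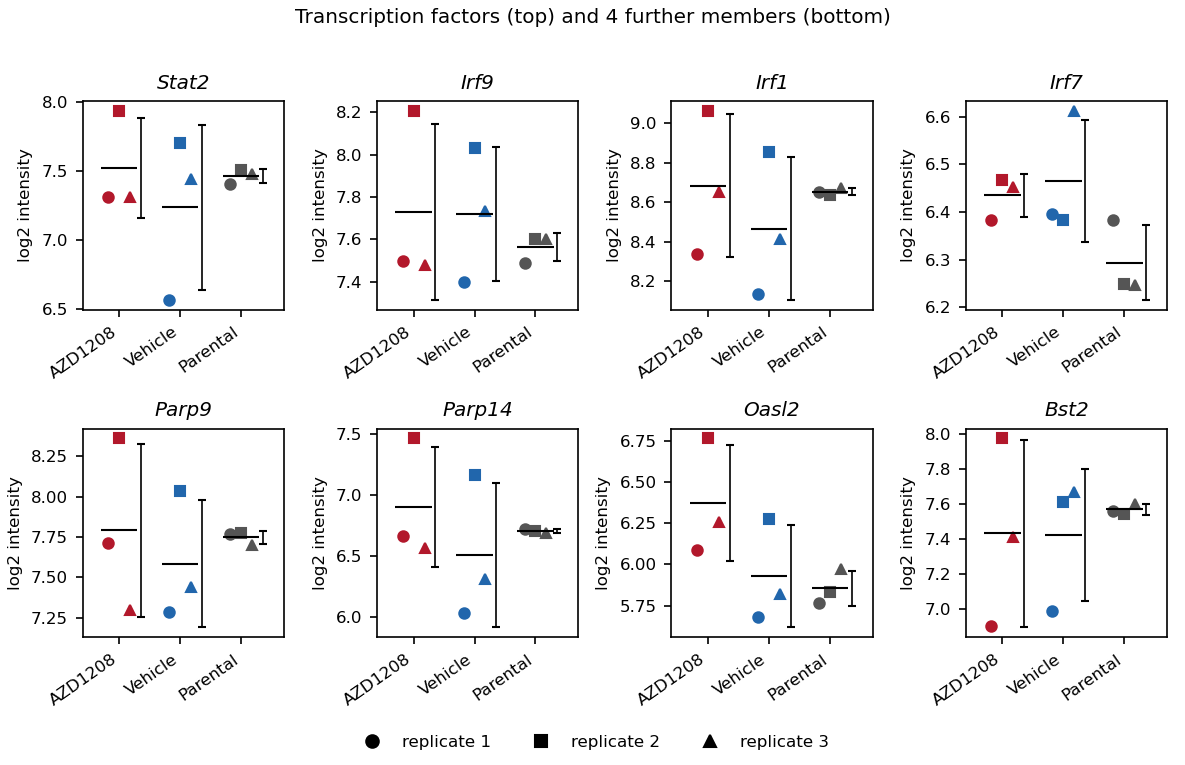
Log2 intensity of 4 transcription factors (top) and of Parp9, Parp14, Oasl2 and Bst2 (bottom) in AZD1208 lines (n = 3), Vehicle lines (n = 3) and on the 3 technical Parental arrays, with the mean as a line and the SD as a bar. The squares of AZD1208 2 and Vehicle 2 stand highest in Stat2, Irf9, Irf1, Parp9, Parp14 and Oasl2, on both sides of the treatment, and Irf7 spans a narrow range.

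The sensors of viral nucleic acid and the ISG15 system did not share 1 direction. Ddx58 encodes RIG-I, a sensor of viral RNA, and was at 7.79, 8.56 and 7.89 in AZD1208 lines, at 8.25, 8.16 and 7.67 in Vehicle lines and at 7.87, 7.75 and 7.58 on the Parental arrays. Of the 6 lines 5 lay above the Parental mean, with a difference of 0.32 (SE 0.34), or 0.20 without AZD1208 2. Ifih1 (MDA5), Dhx58 (LGP2) and Zbp1, a sensor of Z-form nucleic acid, varied over less than 0.5 between the recurrent lines. Ifih1 lay below the filter. Isg15, a ubiquitin-like protein attached to other proteins after interferon, was at 5.60, 6.06 and 5.98 in AZD1208 lines, at 5.57, 5.56 and 5.99 in Vehicle lines and at 6.10, 6.06 and 6.30 on the Parental arrays. Every recurrent line was below every Parental array, but for AZD1208 2 and the second Parental array the gap was less than 0.01. Isg15 passed the filter only through its Parental mean of 6.15, since its recurrent mean of 5.79 lay below the filter value of 5.81. The difference was -0.36 (SE 0.26). Usp18, which removes ISG15 and holds back type I receptor signalling, lay on the other side of Parental. It was at 7.07, 7.48 and 7.17 in AZD1208 lines, at 7.07, 7.14 and 7.59 in Vehicle lines and at 6.79, 6.65 and 6.82 on the Parental arrays. All 6 lines stood above all 3 Parental arrays, by 0.50 on average (SE 0.27, 1.41-fold). Trim25, a ligase that acts on RIG-I, differed by -0.21 (SE 0.23).

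The IFIT proteins bind viral RNA, and their genes lie together on chromosome 19. Ifit2 was at 8.67, 8.54 and 7.89 in AZD1208 lines, at 8.62, 8.20 and 7.96 in Vehicle lines and at 7.71, 8.09 and 7.57 on the Parental arrays. All 6 lines lay above the Parental mean, by 0.52 (SE 0.35, 1.44-fold), but AZD1208 3 and Vehicle 3 lay below the second Parental array, and the technical SD was 0.27. Its neighbours Ifit1 and Ifit3 differed from Parental by 0.05 (SE 0.25) and 0.12 (SE 0.18). For Ifit3 the SD of 0.07 over the 6 lines was smaller than its technical SD of 0.28.

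Most of the classical antiviral effectors differed little between the groups. Oas2 and Oas3 make the messenger that activates RNase L, and with Oasl1 they differed from Parental by -0.10 (SE 0.30), -0.04 (SE 0.22) and -0.0053 (SE 0.20). Mx1, Mx2 and Gbp3, GTPases that block viral replication, all lay below the filter and were between 4.29 and 5.76 in the recurrent lines, against 4.60 to 5.82 on the Parental arrays. Rsad2 (viperin) and Cmpk2, neighbouring genes induced together by interferon, also lay below the filter. Rsad2 was at 5.59, 5.74 and 5.95 in AZD1208 lines, at 5.60, 5.71 and 5.90 in Vehicle lines and at 5.78, 5.79 and 5.81 on the Parental arrays, with overlap between all 3 groups. Rtp4, a receptor transporter induced by interferon, was at 4.88, 4.91 and 5.25 in AZD1208 lines, at 5.24, 4.99 and 5.57 in Vehicle lines and at 5.14, 5.07 and 5.08 on the Parental arrays. AZD1208 lines were lower by 0.25 on average, with overlap (-0.10 without Vehicle 3 and -0.39 without Vehicle 2), and Rtp4 was not tested because it lies below the filter.

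Eif2ak2 encodes PKR, a kinase that stops translation on double-stranded RNA. It was at 7.37, 7.67 and 6.16 in AZD1208 lines, at 7.16, 7.14 and 6.45 in Vehicle lines and at 6.78, 6.85 and 6.48 on the Parental arrays. AZD1208 3 and Vehicle 3 were the 2 lines below Parental, whereas Vehicle 1 was lowest for Stat2 and Parp14. The difference was 0.15 (SE 0.40) between AZD1208 and Vehicle lines and 0.29 (SE 0.53) against Parental. Samd9l, a translation inhibitor below the filter, was likewise lowest in AZD1208 3 (5.07) and Vehicle 3 (5.18) and highest in AZD1208 2 (5.97). Xaf1, a pro-apoptotic interferon target, was at 6.20, 6.58 and 6.70 in AZD1208 lines, at 6.14, 6.75 and 6.24 in Vehicle lines and at 6.18, 6.23 and 5.92 on the Parental arrays. Its difference from Parental was 0.32 (SE 0.29). Ifi35 was measured by 2 probe sets that disagreed in sign for AZD1208 against Vehicle, with -0.08 for the brighter one and 0.07 for the other. Both were lower in recurrent lines, by -0.23 and -0.04.

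Over the 35 members the SD over the 6 recurrent lines exceeded the technical SD of the Parental arrays in 30 (85.7%), close to the 86.7% of all named genes. The range over the lines was at least 1 in 8 members (22.9%, against 15% of all named genes) and below 0.5 in 10 (28.6%, against 37.9%). The 11 measured members with an ISRE core in the promoter window had a median range of 0.50 and a median difference from Parental of -0.04. The 15 measured members with a window and no such core had a median range of 0.78 and a median difference of 0.16. The 4 receptor genes are all among those without the core, so motif and role cannot be told apart in this split.

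Further genes of the pathway were taken from 5 lists, and none of their genes passed the adjusted test in either comparison (limma, smallest adjusted p = 1). In the JAK-STAT relay and its inhibitors, 10 genes were measured and 10 tested, and 4 of the 10 were higher in recurrent lines. AZD1208 lines were higher than Vehicle lines for 2 of the 10 (47.5% of all named genes), with a median difference of -0.14. They lay wholly below Vehicle lines for 1 of the 10 (2.29% of all named genes). Ptpn6, a phosphatase that restrains JAK kinases, differed from Parental by 0.46, and Socs3, a feedback inhibitor, by -0.51. The receptor kinase gene Tyk2 was at 8.54, 8.51 and 8.48 in AZD1208 lines, against 8.49, 9.09 and 8.94 in Vehicle lines, with overlap at Vehicle 1 (difference -0.33, SE 0.19). Among genes of sensing and interferon induction 5 of 10 were higher in recurrent lines. They included the repressor Irf2 (0.37) and the nucleotide hydrolase Samhd1 (0.39), while Irf3 was at -0.33. AZD1208 lines were higher than Vehicle lines for 4 of these 10, and wholly above for 1 (1.92% of all named genes). Of the interferon genes and further receptors 5 of 11 were higher in recurrent lines, and 5 of 11 in AZD1208 against Vehicle lines. Ifnb1, the gene of interferon beta, was at 4.70, 4.46 and 4.70 in AZD1208 lines, at 4.70, 4.96 and 4.70 in Vehicle lines and at 4.72 on average in Parental. It lay below the filter, and its groups overlapped. The type III interferon gene Ifnl3 differed from Parental by -0.21, with all 6 lines below each Parental array. Ifnl2 had an AZD1208 minus Vehicle difference of 0.31, with AZD1208 3 alone high at 9.60.

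Further type I targets were higher in recurrent lines for 22 of 35 genes, with a median of 0.12 and all 6 lines above Parental for 8 (10.2% of all named genes). Ly6e, a surface protein induced by type I interferon, was at 11.25, 11.62 and 10.80 in AZD1208 lines, at 10.98, 11.26 and 10.93 in Vehicle lines and at 9.64 on average in Parental. Its unadjusted limma p against Parental, 0.00151, was the smallest among all the genes of these lists. Ifi27, a mitochondrial interferon target, was at 8.61, 8.98 and 7.97 in AZD1208 lines, at 9.10, 8.17 and 7.98 in Vehicle lines and at 7.18 on average in Parental, a difference of 1.29 (SE 0.48). All 6 lines stood above Parental for both genes. Ifitm3, which blocks viral entry, was at 9.29, 9.26 and 9.24 in AZD1208 lines, against 8.32, 8.89 and 9.15 in Vehicle lines and 8.48 on average in Parental. The 3 AZD1208 lines lay above all Vehicle lines, by 0.48 on average (SE 0.22). Of the 35 genes in this list 4 had AZD1208 lines wholly above Vehicle lines (1.92% of all named genes) and 1 wholly below (2.29%). The gene below, Ifi204, of a family of DNA-binding interferon targets, was at 3.46, 3.29 and 3.43 in AZD1208 lines, against 3.95, 5.84 and 4.92 in Vehicle lines. Its difference of -1.51 was not tested, since it lies below the filter. AZD1208 2 and AZD1208 3 were each highest in 9 of the 35 (15.9% and 30.5% of all named genes).

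Among gamma interferon targets 16 of 27 were higher in recurrent lines, with a median of 0.04. The GTPase gene Irgm2 was at 6.45, 6.88 and 6.30 in AZD1208 lines, at 6.53, 6.55 and 6.40 in Vehicle lines and at 5.80 on average in Parental, a difference of 0.72 (SE 0.25), with all 6 lines above. Its relative Igtp differed by 0.36 (SE 0.24) from Parental. The chemokine gene Cxcl11 was at 6.32, 6.09 and 6.28 in AZD1208 lines, against 6.08, 5.88 and 6.08 in Vehicle lines, without overlap (difference 0.22, SE 0.15). Gbp8, a GTPase gene below the filter, had the opposite order without overlap, at 4.86, 5.11 and 5.32 in AZD1208 lines, against 5.44, 5.39 and 5.60 in Vehicle lines. They were the 1 gene of 27 wholly above and the 1 wholly below, against 1.92% and 2.29% of all named genes. AZD1208 2 was highest in 8 of these 27 genes (15.9% of all named genes).

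Markers of other cell types were set beside these values, since the labels do not say whether host cells remained in the cultures. Fibroblast markers (8 of 8 measured, 5 past the filter) had a summed linear intensity of 1286 to 2557 in AZD1208 lines, 1415 to 2034 in Vehicle lines and 1246 to 1358 on the Parental arrays, with the highest sum in AZD1208 2. Pdgfrb, at 9.78 there and at most 7.22 in the other recurrent lines, and Pdgfra, at 9.84, carried much of that sum. AZD1208 2 was highest in 2 of the 8 markers, and their median there was -0.06 relative to Parental. Myeloid markers (8 of 8 measured, 5 past the filter) summed to 634 to 1114 in AZD1208 lines, 706 to 1067 in Vehicle lines and 739 to 768 on the Parental arrays. They were highest in AZD1208 2 and Vehicle 2, the lines that were highest for Stat2, Irf9 and Parp14. AZD1208 2 was highest in 2 of the 8, Cd68 and Cd14, and the marker median there, -0.0082 relative to Parental, did not follow the sum. Vehicle 2 was highest in 1 of the 8, but its marker median of 0.28 was the highest of the 6 lines. Over all named genes the median in Vehicle 2 was -0.04. The common leukocyte gene Ptprc lay below the filter and was at 4.49 in AZD1208 2 and 5.05 in Vehicle 2, against 4.85 on average in Parental. Endothelial sums (6 of 6) were 372 to 441 in AZD1208 lines, 359 to 409 in Vehicle lines and 421 to 436 in Parental, and lymphocyte sums (7 of 8) were 400 to 541 in AZD1208 lines, 379 to 485 in Vehicle lines and 436 to 477 in Parental. Prostate epithelial sums (6 of 9) were 1070 to 2225 in AZD1208 lines, with the lowest in AZD1208 2, 1268 to 1558 in Vehicle lines and 1478 to 1654 in Parental. Of these 6 markers 5 were lower in recurrent lines and 1 higher, with a median difference of -0.21. For 3 of them all 6 lines lay below the Parental mean (9.88% of all named genes). Their median relative to Parental lay between -0.46 (Vehicle 2) and -0.06 (Vehicle 3), with -0.45 in AZD1208 2. The plasmacytoid dendritic cell markers (4 of 4), which include Bst2 itself, summed to 1139 to 1996 in AZD1208 lines, 1649 to 1910 in Vehicle lines and 1177 to 1506 in Parental. Siglech, a defining marker among them, was between 6.04 and 6.34 in all 6 lines, against 6.21 on average in Parental. In such bulk RNA a change in the number of cells of a type and a change in RNA per cell cannot be told apart, and the part of these markers in the results was not tested.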

How the data were processed

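Total RNA was biotin-labelled and hybridised to 9 Affymetrix Mouse Gene 2.0 ST arrays. The authors deposited log2 intensities per probe set (41345) made with oligo, per the submitters' processing notes; no source used here gives its version or how arrays were normalized and summarised. The authors' scale was kept. Names came from the platform annotation (23521 probe sets with 1 symbol, 1814 with several, which were not named), with Entrez identifiers checked in RefSeq for all 36 member probe sets. Of several probe sets for a gene, the one of highest mean was used. The 30% of genes of lowest mean (below 5.81) were not tested.

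The 3 Parental arrays were averaged, and the 7 samples were fitted over 15526 genes with lmFit and eBayes of limma 3.58.1 (R 4.3.3; 4 residual and 3.36 prior degrees of freedom), with Benjamini-Hochberg adjustment. The lone Parental sample is assumed to vary like the lines. The 2 comparisons share the recurrent lines. SE is limma's moderated standard error. The procedure was tested on simulated data with added changes larger than any group difference of a member. Differences of the members' size were not simulated. The number of arrays limits the precision.

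All members are named. Given array by array are receptors, transcription factors, the 8 members of largest difference from Parental, the 6 of largest AZD1208 difference and the 6 of widest range; Parp9, Bst2, Rsad2, Samd9l, Mx2, Ifi204, Gbp8, Cd68, Cd14 and Pdgfra and the chromosome 16 neighbours were added after their values were seen. Of each further list, the 3 genes of smallest unadjusted p are named. Members and lists were chosen with earlier results of these data known.

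AZD1208 and Vehicle lines share replicate numbers. Deviations from the group means correlated across the genes tested at 0.146, 0.118 and 0.532 for equal numbers, each over 0.1, so the numbers were treated as a possible pairing; the basis is the data, not a label, and Vehicle 1 with AZD1208 2 reached 0.264. Alternatives were the replicate block, centring, quantile normalization, array quality weights, other filters, the mean of probe sets, separate Parental arrays and leaving out each line.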

Additional observations from a re-analysis of the deposited data

Results flagged for a closer look

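In 4 of the 35 measured members 1 of the 6 recurrent lines stood apart from the others, measured as its gap to the nearest line over the whole range and set against Dixon's critical value for 6 lines. Chance gives about 1 in 20 genes, and 10.6% of all named genes met this rule, against 11.4% of the members. For Ifnar1 the ratio was 0.649, with AZD1208 2 at 10.85 and the other lines at 10.34 or below. For Ifngr2 it was 0.649, with AZD1208 2 at 11.08 and the next line, Vehicle 2, at 9.19. For Irf7 it was 0.633, with Vehicle 3 at 6.61 and the next line, AZD1208 2, at 6.47. For Mx2 it was 0.664, with Vehicle 3 at 5.26 and the next line at 4.93.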

How the results depend on the processing

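No member passed under any alternative run, with Ifnar1 nearest at an adjusted limma p of 0.1384 with separate Parental arrays. The replicate block on the 6 lines called 0 genes and changed no call. With array quality weights 14 members were higher in AZD1208 lines, and 1 gene, no member, passed against Parental. With the 3 Parental arrays as separate samples 156 genes and 0 members passed, where technical spread stands in for that between samples. Against single Parental arrays, 2 members lay above and 1 below in all 6 lines. In AZD1208 against Vehicle lines, weights turned Stat2 to -0.0022, Irf1 to -0.0889 and Irf9 to -0.2081, and centring turned Irf9 to -0.0187; the cause was not tested. Leaving out each line in turn gave -0.0418 to 0.42 for Ifngr1, -0.0215 to 1.24 for Ifngr2, -0.0525 to 0.52 for Stat2, -0.0695 to 0.0448 for Irf7 and -0.2321 to 0.16 for Irf9, and against Parental -0.0033 to 0.23 for Ifngr1, -0.20 to 0.0825 for Stat2 and -0.17 to 0.0092 for Irf1. The other 299 values of single genes kept their direction. Many of them could not change: other filters, the replicate block, the fit of the 6 lines alone and separate Parental arrays leave a difference as it is. The mean of probe sets does so for genes with 1 probe set. For the 8 members below the filter no level above background is known.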

Other observations

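Some genes of innate immunity and the fibroblast marker gene Pdgfrb, all outside the 38, were highest in AZD1208 2. They were picked after their values were seen, so they give no share of such genes. Of all named genes, 15.9% were highest in that line. Nos2, the inducible nitric oxide synthase, was at 9.75 in AZD1208 2, between 6.66 and 7.58 in the other recurrent lines and at 6.80 on average in Parental. Tnfsf10, the death ligand TRAIL, was at 10.30 in AZD1208 2 and 8.44 in Vehicle 2, at most 7.32 in the other recurrent lines and at 6.34 on average in Parental. Casp4, an inflammatory caspase, was at 6.52 in AZD1208 2, at most 4.72 in the other recurrent lines and at 4.58 in Parental. Its mean lies below the filter, so it was not tested. The growth factor receptor gene Pdgfrb, a fibroblast marker, was at 9.78 in AZD1208 2, at most 7.22 in the other recurrent lines and at 6.85 in Parental.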
